A study of Homo sapiens with 6 samples.

Results

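The Eph receptors and their ephrin ligands were followed through 10 genes: the receptors EPHA3, EPHA2, EPHA4, EPHA7, EPHB2, EPHB3 and EPHB4, and the ligands EFNA1, EFNB1 and EFNB2. They were taken by gene name from the array, 10 of its 43317 gene names, with every probe that carries such a name. The genes have 16 probes, and 12 of these, with at least 1 for each gene, were bright enough to be analysed. EPHA3 was chosen by measured values, the sign of its log2 ratio to control on each of the 6 arrays, which was opposite in the lines compared here, so its values are given as a description, without a test. The other 9 were chosen as members of the same family, also with earlier results of these data known.

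The study used the prostate cancer cell line 22RV1, long established from human tissue and described by the labels as positive for SPINK1, a secreted protease inhibitor. Stable lines carried the lentiviral vector pLemiR-338-5p, pLemiR-421 or, as control, pLemiR-RFP, which encodes a red fluorescent protein. All lines, the control included, were kept in RPMI with serum and puromycin. On each of the 6 Agilent 2-colour arrays, Cy5 labelled RNA of a miRNA line and Cy3 labelled control RNA, with no array in the reverse orientation. Replicates 1, 2 and 3 form the miR-338-5p group. The miR-421 group holds a sample named a pool and replicates 1 and 2. The labels do not say what was pooled, what the letter C before each replicate number means, or whether a line is 1 clone. The SD and p-values therefore measure the spread between these samples, which may be technical, and a control common to all arrays would leave out the control's own spread. Both comparisons with control may share control RNA. With control always in Cy3, a dye bias or control level common to the arrays was not tested apart from a shift shared by both lines.

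Eph receptors are the largest family of receptor tyrosine kinases. EphA receptors mostly bind the ephrin-A ligands, which are held at the cell surface by a lipid anchor, and EphB receptors mostly bind the ephrin-B ligands, which cross the membrane. Both partners sit on the surfaces of touching cells and both can signal inward, which steers cell adhesion, repulsion and movement. In epithelia EPHA2 and the EphB receptors help set cell boundaries, and members of the family are often altered in carcinomas of the prostate and other organs. A microRNA (miRNA) pairs through its seed, the bases near its 5′ end, with messenger RNAs and lowers their output.

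The miRNAs that the vectors carry are shown because every comparison here is between lines made with them. Seeds, bases 2 to 8, are in capitals. The sequences are the RefSeq mature forms. On GRCh38.p14, hsa-miR-338-5p lies at chr17:81125923-81125944 on the minus strand and hsa-miR-421 at chrX:74218392-74218414 on the minus strand.
hsa-miR-338-5p: aACAAUAUccuggugcugagug
hsa-miR-421: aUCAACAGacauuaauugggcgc
The seeds differ, so the miRNAs belong to different seed groups. The 7-base matches to the seeds, ATATTGT for miR-338-5p and CTGTTGA for miR-421, were in 0 of the 16 probes of the family members. Over all 58201 probes of 60 bases they were in 0.478% and 0.558%, and their reverse complements ACAATAT and TCAACAG, also in 0 of the 16, in 0.385% and 0.503%. A probe covers only 60 bases of a transcript, so this says nothing about the rest of it.

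Values are log2 ratios of Cy5 over Cy3 after background correction and loess normalization, so 0 is the control level, 1 is a doubling, and values below 0 mean less signal than control. The number of arrays limits the precision. Between 44.3% and 47.9% of gene probes were well above background in Cy3 and between 41.9% and 48.3% in Cy5, with the lowest share in miR-421 replicate 1. No spot was saturated. Over all tested probes, ratios of the miR-338-5p arrays correlated with each other at 0.478 to 0.613 and those of the miR-421 arrays at 0.637 to 0.823. All 12 markers of prostate luminal cancer cells were well above background in Cy3 on all 6 arrays. Of 6 fibroblast markers, COL1A1, DCN and LUM were above it in Cy3 on all 6 arrays and COL1A2 and COL3A1 on none. Of 5 endothelial markers, VWF and CDH5 were above it on all 6 and PECAM1, KDR and TEK on none, and all 4 leukocyte markers measured were above it on all 6. No part of any result below was tested against these markers.

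The miR-338-5p replicate 2 array often differed from replicates 1 and 3 in this family, counted over the 9 genes other than EPHA3. It gave the highest of the 3 miR-338-5p ratios in 6 of the 9, against 32.8% of all 21614 genes with a value on all 6 arrays. EFNB2, which has no value in the miR-421 pool, is among the 9 but not among those genes. Its sign differed from that of replicates 1 and 3 in 4 of the 9, EPHA7, EPHB2, EPHB4 and EFNB2, against 16.7% of all genes. Its ratio lay more than 1 from the mean of replicates 1 and 3 in 1 of the 9, EFNB2, against 2.61% of all genes. Each miR-338-5p mean given below that turns in sign or moves by over 1.5 times without this array is therefore given both ways, as is that of EPHA3.

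EPHA3, a receptor of the ephrin-A ligands known for its part in cell repulsion and reported as altered in several cancers, had a higher signal than control with miR-338-5p and a lower one with miR-421. Its probe lies at chr3:89530861-89530920 (hg19, plus strand) and starts at base 5385 of the full-length transcript NM_005233. The log2 ratio was 0.93, 2.86 and 1.84 in miR-338-5p replicates 1, 2 and 3. It was -0.73 in the miR-421 pool, -0.82 in replicate 1 and -0.94 in replicate 2. All 3 miR-338-5p arrays were above 0 and all 3 miR-421 arrays below it, which is the pattern that chose the gene.

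As a share of the control signal on the same array, EPHA3 stood at 190%, 726% and 358% in the miR-338-5p line. In the miR-421 line it stood at 60.3%, 56.5% and 52.0%. The mean log2 ratio was 1.88 ± 0.97 (SD, n = 3) with miR-338-5p, a 3.67-fold higher signal than control, and -0.83 ± 0.11 (SD, n = 3) with miR-421, where the control signal was 1.78-fold that of the line. The miR-421 arrays lay close together, while the miR-338-5p arrays spread over about as much as their own mean. Without replicate 2 the miR-338-5p mean was 1.38. The difference of the line means was 2.71, and it was 2.22 without that replicate.

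The dyes taken apart show where the EPHA3 ratio moved. The normalized log2 signal of control RNA in Cy3 stayed between 7.42 and 7.53 on all 6 arrays, with line means 0.06 apart. In Cy5 it was 8.44, 10.38 and 9.36 on the miR-338-5p arrays and 6.69, 6.71 and 6.48 on the miR-421 arrays. The Cy5 means differed by 2.77 between the lines, so the difference lay in the miRNA lines' own channel. The Cy5 signal was below Cy3 on each miR-421 array and above it on each miR-338-5p array.

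**Figure D1:**
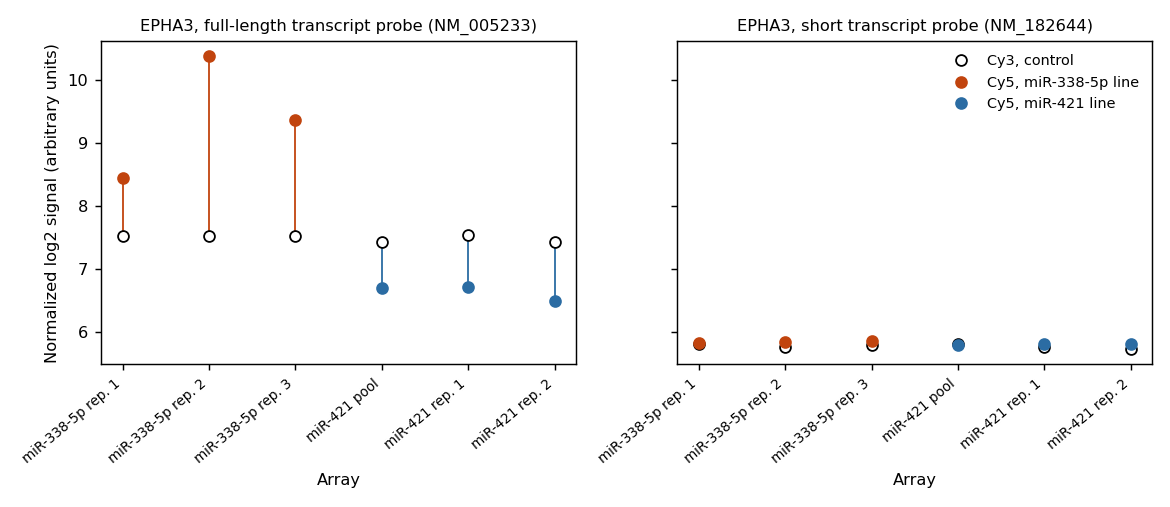
Signals of both EPHA3 probes, the full-length probe on the left and the short-transcript probe on the right. The vertical axis is the normalized log2 signal and each array has an open point for control RNA (Cy3) and a coloured point for the miRNA line (Cy5), joined by a line. On the left the control stays between 7.42 and 7.53, with the miRNA line above it on the 3 miR-338-5p arrays and below it on the 3 miR-421 arrays, and on the right both dyes lie together at the dim end.

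The size of the EPHA3 ratio differed with the processing. With loess kept, the miR-421 mean was -1.18 with no background correction and -1.45 with the background subtracted. With the image software's own ratio, or in the authors' deposited table, the miR-421 mean was -1.50 and the difference between lines 3.79. The software's dye normalization also differs, and that of the authors' table is not given. The miR-338-5p mean was 2.10 with no correction, 2.26 with the background subtracted, and 2.29 with the software's ratio or in the authors' table. A second EPHA3 probe, at chr3:89449087-89449146 in the short transcript NM_182644, stayed under the limit for well above background on all 6 arrays and for both dyes. The short form, which lacks the kinase domain, was thus not measured here. Opposite signs on all arrays in the EPHA3 direction were seen in 433 of 27382 probes with 6 values, 1.58%, and in the reverse direction in 536, 1.96%. That pattern chose EPHA3, so nothing is read from it.

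**Figure D2:**
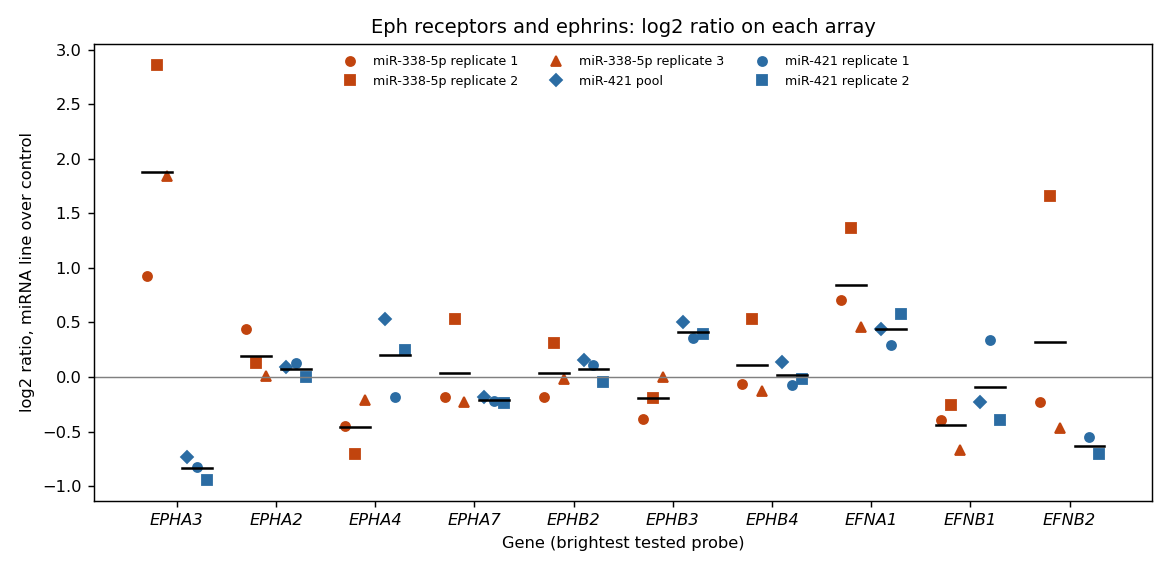
Log2 ratio of Cy5 over Cy3 of the brightest probe of each of the 10 genes. Points are single arrays and black bars are line means, and the pool has no EFNB2 point. EPHA3 is split by line, EPHB3 and EPHA4 lie apart in the other direction, and the highest EFNB2, EFNA1 and EPHB4 points with miR-338-5p are all replicate 2.

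Among the other 9 genes, 1 passed the test with miR-338-5p, EFNA1, which rose, and 1 with miR-421, EPHB3, which also rose (limma, Benjamini-Hochberg over all probes at 0.05). None fell. Of all tested probes, 8.95% passed in the miR-338-5p comparison, 3.77% higher and 5.19% lower. In the miR-421 comparison 21.6% passed, 9.19% higher and 12.5% lower. These shares rest on single arrays too. With miR-338-5p the count of 2463 probes was 400 to 579 without any 1 of that line's arrays. It was 1155 without the miR-421 pool, 752 without miR-421 replicate 2, and 0 with a trended and robust variance. Without miR-421 replicate 1 it rose to 3648. With miR-421 the count of 5951 was 3406 without the pool, 2973 without replicate 1 and 628 without replicate 2. Both counts, 1 of 9 genes each, come with those backgrounds, and neither is a result about the family as a group. The median ratio of the 9 genes was 0.04 with miR-338-5p and 0.075 with miR-421, against -0.0027 and 0.0015 over all tested probes.

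The test of the difference between lines, where a dye bias or control level common to the arrays cancels, called 0 of the 9 genes (limma), with 2 at an unadjusted p under 0.05, EPHA4 and EPHB3, a level that 13.6% of all probes reached. After adjustment over all probes it called 0.0473%, 0.0109% higher and 0.0364% lower. Values of the miR-338-5p and miR-421 arrays did not overlap in 2 of the 8 genes measured on all 6 arrays, again EPHA4 and EPHB3, against 19.8% of all probes. The counts rest on single arrays. With miR-338-5p the count was 0 without any 1 of that line's replicates 1, 2 or 3, without the pool of the miR-421 line or its replicate 2, and it was 2 without miR-421 replicate 1, which added EFNB1. With miR-421 it was 0 without the pool, replicate 1 or replicate 2, and it was 4 without miR-338-5p replicate 2, which added EFNA1, EFNB2 and EPHA7.

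EPHA2 is the EphA receptor most often studied in epithelial tumours. Its single probe crosses an exon junction, between chr1:16451800 and chr1:16455972 on the minus strand (hg19), and starts at base 2936 of NM_004431. Because it lies in coding sequence, it can be shown here as the stretch that was measured.
EPHA2 probe: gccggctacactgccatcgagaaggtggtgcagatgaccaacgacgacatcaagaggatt
The ratio was 0.44, 0.13 and 0.01 in miR-338-5p replicates 1, 2 and 3, and 0.09, 0.13 and 0.01 in the miR-421 pool and replicates 1 and 2. All arrays were at or above the control level, miR-338-5p replicate 1 the furthest at 0.44, and the lines overlapped. Neither mean passed the test, 0.19 ± 0.22 (SD, n = 3, limma adjusted p = 0.23) and 0.08 ± 0.07 (SD, n = 3, adjusted p = 0.58). The difference between lines was 0.11, with a 95% interval of -0.19 to 0.42. The probe is dim. With the background subtracted its means were 0.48 (limma adjusted p = 0.22) with miR-338-5p and 0.32 (adjusted p = 0.31) with miR-421.

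EPHA4, an EphA receptor that also binds ephrin-B ligands, had line means in the order opposite to EPHA3. Its probe at chr2:222290717-222290776 (minus strand) gave -0.45, -0.71 and -0.21 with miR-338-5p and 0.53, -0.18 and 0.25 with miR-421, in the order pool, replicate 1, replicate 2. Every miR-338-5p array was below control and below every miR-421 array, although the highest of the former, -0.21, nearly met the lowest of the latter, -0.18. The means were -0.46 ± 0.25 (SD, n = 3) and 0.20 ± 0.36 (SD, n = 3), with limma adjusted p-values of 0.12 and 0.39. Without replicate 2 the EPHA4 mean with miR-338-5p was -0.33. The difference was -0.66, its unadjusted 95% interval ran from -1.18 to -0.13, and its adjusted p over all probes was 0.28. The probe is dim, and with the background subtracted its miR-338-5p mean was -1.28 (adjusted p = 0.073).

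EPHA7, a receptor best known from the developing nervous system, was close to the detection limit. Only 1 of its 3 probes was bright enough for the test, at chr6:93950480-93950539 (minus strand), from base 5842 of the transcript. Its ratio was -0.18, 0.53 and -0.23 with miR-338-5p and -0.18, -0.22 and -0.24 with miR-421. Without miR-338-5p replicate 2, the 1 array above 0, the miR-338-5p mean moved from 0.04 to -0.21 and equalled that of miR-421. In Cy5 the probe was well above background on 2 of 3 miR-338-5p arrays and on 0 of 3 miR-421 arrays. The miR-421 signal is thus only bounded, at least 1.16-fold lower than control, a bound that leaves out the spread between arrays. Here, and for EPHB2 and EPHA1 below, the brighter dye's mean is set against the dimmer dye's. The dimmer dye's signal, where lower, is first raised on each array to the lowest signal well above background there. The mean of -0.21 had a limma adjusted p of 0.35. With the background subtracted it was -2.15 (adjusted p = 0.053).

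EPHB2, a receptor of the ephrin-B ligands that has been described as a tumour suppressor in prostate and colon, stayed near control. Its brightest probe lies at chr1:23240041-23240100, from base 3086 of the transcript. It read -0.18, 0.32 and -0.01 with miR-338-5p and 0.16, 0.11 and -0.04 with miR-421. Both lines straddled 0 and overlapped. The means were 0.04 ± 0.25 (SD, n = 3) and 0.075 ± 0.11 (SD, n = 3), with limma adjusted p-values of 0.84 and 0.64, and the difference of -0.03 had a 95% interval of -0.38 to 0.32. Without replicate 2 the EPHB2 mean with miR-338-5p was -0.10. This probe too is dim. With the background subtracted its means were 0.06 (limma adjusted p = 0.91) with miR-338-5p and 0.28 (adjusted p = 0.47) with miR-421. Another EPHB2 probe, from base 3709, gave -0.09, 0.25 and 0.16, and 0.16, 0.37 and 0.08, and passed no test either. On the miR-421 arrays its control signal was not well above background on any array. Raising that signal to the lowest one well above background changed nothing, so the 1.15-fold higher signal is only the measured ratio. The last of its 3 probes, from base 3349, was too dim to be tested.

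EPHB3, an EphB receptor that guides cell positioning in epithelia, was the only receptor among the 9 tested genes to pass a test, and its line means lay in the order opposite to those of EPHA3. Its probe at chr3:184299825-184299884 gave -0.38, -0.19 and -0.0004 with miR-338-5p. With miR-421 it gave 0.50, 0.35 and 0.39. The miR-421 arrays were all above control, and the miR-338-5p arrays all lay at or below it, replicate 3 at the control level.

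With miR-421 EPHB3 rose to 134% of the control signal, 0.42 ± 0.08 (SD, n = 3, limma adjusted p = 0.022). With miR-338-5p it was -0.19 ± 0.19 (SD, n = 3, adjusted p = 0.20). The difference between lines was -0.61 with an unadjusted 95% interval of -0.89 to -0.32, but its adjusted p was 0.14 and it is not called. The rise held in 13 of 17 alternatives. It was lost with each array centred on its median in place of loess (0.29, adjusted p = 0.23), and without the miR-421 pool (adjusted p = 0.083), replicate 1 (0.057) or replicate 2 (0.097), where the mean stayed between 0.37 and 0.45.

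EPHB4, the receptor of ephrin-B2 that is known from blood vessels and is also made by many carcinoma cells, has a pair of tested probes that did not move alike. The probe shown here crosses an exon junction in coding sequence between chr7:100401166 and chr7:100402800 (minus strand), from base 3312.
EPHB4 probe: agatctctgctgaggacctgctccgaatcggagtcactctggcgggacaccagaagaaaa
It read -0.06, -0.24 and -0.29 with miR-338-5p and -0.09, -0.15 and -0.09 with miR-421. The brighter probe, at chr7:100400531-100400590 from base 3947, read -0.06, 0.53 and -0.13, and 0.14, -0.08 and -0.01. The probes were at odds on miR-338-5p replicate 2, with 0.53 on the brighter and -0.24 on the other. The coding probe is dim, with a normalized log2 Cy3 signal of 6.44 to 6.65, against 9.07 to 9.29 on the brighter. For the brighter probe the means were 0.11 ± 0.36 (SD, n = 3, limma adjusted p = 0.66) and 0.02 ± 0.11 (SD, n = 3, adjusted p = 0.95). The EPHB4 miR-338-5p mean was -0.10 without replicate 2. For the coding probe the adjusted p-values were 0.10 and 0.25.

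**Figure D3:**
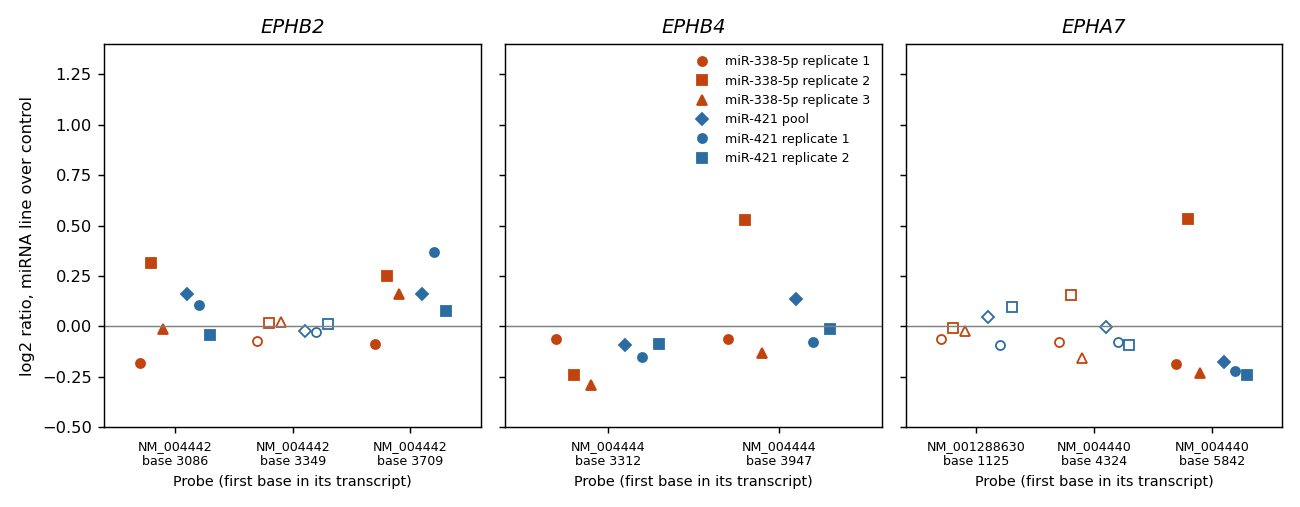
All probes of EPHB2, EPHB4 and EPHA7, named by their first base in the transcript. The vertical axis is the log2 ratio of the miRNA line over control, each point is 1 probe on 1 array, and open points are probes too dim to be tested. The EPHB4 probes part on miR-338-5p replicate 2, at 0.53 and -0.24, while the tested EPHB2 probes lie closer together on that array, at 0.32 and 0.25.

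EFNA1, the ephrin-A ligand that binds EPHA2 and EPHA3 among others, was above control on all 6 arrays. It is measured by 1 probe at chr1:155106767-155106826, spotted 10 times on each array. The ratio was 0.71, 1.36 and 0.46 with miR-338-5p and 0.44, 0.29 and 0.58 with miR-421. Flagged spots were left out, so miR-338-5p replicate 1, the miR-421 pool and miR-421 replicate 1 have 9 spots each. The spot left out of the pool, marked as not uniform, read -1.90. Within an array the spots kept had an SD of 0.043 to 0.069, which is the error of those spots alone and not the spread between samples. With flagged spots kept the miR-421 mean was 0.36 (limma adjusted p = 0.18).

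EFNA1 passed the test with miR-338-5p, at 180% of control, 0.84 ± 0.47 (SD, n = 3, limma adjusted p = 0.037). With miR-421 it was 0.44 ± 0.14 (SD, n = 3, adjusted p = 0.11), not past the threshold. The lines overlapped, and the difference of 0.41 had a 95% interval of -0.18 to 0.99 (adjusted p = 0.51). The call with miR-338-5p is fragile: it held in 6 of 17 alternatives, with adjusted p-values between 0.024 and 0.13. Without replicate 2 the mean was 0.58 (adjusted p = 0.062). Leaving out replicate 1 (adjusted p = 0.0997), replicate 3 (0.063), the pool of the miR-421 line (0.074) or its replicate 2 (0.075) also ended it. With miR-421 the mean passed without miR-338-5p replicate 2 (adjusted p = 0.028) and in a fit of that line's 3 arrays alone (0.042).

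EFNB1, a transmembrane ligand of EphB receptors, lay below control on 5 of 6 arrays. Its probe at chrX:68061833-68061892 gave -0.39, -0.26 and -0.67 with miR-338-5p and -0.23, 0.34 and -0.39 with miR-421. The 3 miR-338-5p arrays were all low, and only miR-421 replicate 1 was high. The means of -0.44 ± 0.21 (SD, n = 3, limma adjusted p = 0.13) and -0.09 ± 0.39 (SD, n = 3, adjusted p = 0.71) did not pass, and their difference was -0.35 with a 95% interval of -0.87 to 0.18. With miR-338-5p the mean did pass with median centring, at -0.65 (adjusted p = 0.021), and without miR-421 replicate 1 (adjusted p = 0.041), which enters through the common estimate of the spread.

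EFNB2, the transmembrane ligand of EPHB4 and other EphB receptors, had the widest spread among miR-338-5p arrays. Its probe at chr13:107142736-107142795 (minus strand) gave -0.23, 1.66 and -0.47 in replicates 1, 2 and 3. With miR-421 it gave -0.55 and -0.71 in replicates 1 and 2. The pool's spot was marked as not uniform by the image software and left out, so the miR-421 mean has n = 2. The ratio in that spot was -2.83. Apart from miR-338-5p replicate 2, every EFNB2 value was below control.

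The EFNB2 mean was 0.32 ± 1.16 (SD, n = 3, limma adjusted p = 0.70) with miR-338-5p and -0.63 ± 0.11 (SD, n = 2, adjusted p = 0.44) with miR-421. Without miR-338-5p replicate 2 the first turned to -0.35, and the second passed the test at the same value (adjusted p = 0.026), as it did in a fit of the miR-421 arrays alone (0.044). With the marked spot kept, the miR-421 mean was -1.36 (adjusted p = 0.14). The difference between lines was 0.95, with a 95% interval of -0.78 to 2.68, and 0.28 without that replicate.

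**Figure D4:**
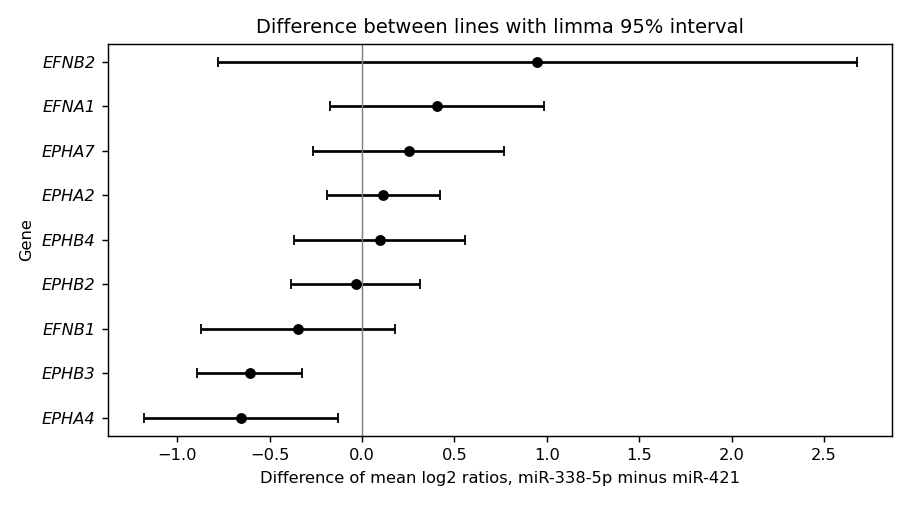
Difference of the line means, miR-338-5p minus miR-421, on the log2 scale for the 9 tested genes. Bars are unadjusted 95% intervals of the limma fit. The intervals of EPHA4 and EPHB3 lie below 0 and the rest include 0. EPHA3 is not drawn because it was chosen for its difference.

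Of the other 12 Eph and ephrin genes on the array, 5 had a probe bright enough for the test: the ligands EFNA3, EFNA4 and EFNB3 and the receptors EPHA1 and EPHA10. EPHA1, an EphA receptor found in epithelia, read below control in both lines, and a dye bias common to the arrays was not tested. Its ratio was -0.31 ± 0.03 (SD, n = 3, limma adjusted p = 0.027) with miR-338-5p and -0.22 ± 0.07 (SD, n = 3, adjusted p = 0.033) with miR-421. These are small shifts of a dim probe. In Cy5 the probe was well above background on 0 of 3 miR-338-5p arrays and on 1 of 3 miR-421 arrays. Raising the miR-338-5p signal to the lowest one well above background changed nothing, so the 1.24-fold lower signal is only the measured ratio. EPHA10 was at -0.32 (adjusted p = 0.11) and -0.31 (adjusted p = 0.084), and EFNB3 at 0.04 (adjusted p = 0.93) and 0.50 (adjusted p = 0.13). Without miR-338-5p replicate 2 the EFNB3 mean in that line was -0.26.

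In the difference between lines 0 of these 5 genes were called by limma, with 1 at an unadjusted p under 0.05, against 13.6% of all probes. The EPHA1 calls held in 10 and 9 of 17 alternatives. With the background subtracted the EPHA1 means were -1.57 and -0.94. The receptors EPHA5, EPHA6, EPHA8, EPHB1 and EPHB6 and the ligands EFNA2 and EFNA5 had no probe bright enough to be tested.

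Inside the cell, Eph receptors act through adaptors, kinases and phosphatases and through exchange factors of small GTPases. Of a list of 48 such genes, 43 were tested, with the brightest probe for each. With miR-338-5p 1 rose, NCK2, and 0 fell, where 3.77% of all probes passed as higher and 5.19% as lower. With miR-421 8 rose, GRB10, NCK2, ARHGEF19, CHN2, ABL1, ARHGEF15, GRB7 and INPPL1, and 4 fell, CDC42, ACP1, ANKS1A and CRK, 12 of 43 genes where 21.6% of all probes passed, 9.19% higher and 12.5% lower. The difference between lines called 0 (limma), with 4 of 43 at an unadjusted p under 0.05, against 13.6% of all probes. The list's median ratio was -0.03 and -0.05, against -0.0027 and 0.0015 over all tested probes.

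NCK2, an adaptor that links activated receptors to the actin skeleton, was above control on every array: 0.70, 1.52 and 0.63 with miR-338-5p and 1.13, 1.06 and 1.23 with miR-421. The means were 0.95 ± 0.50 (SD, n = 3, limma adjusted p = 0.031) and 1.14 ± 0.08 (SD, n = 3, adjusted p = 0.011). Without miR-338-5p replicate 2 the first was 0.67 (adjusted p = 0.031). Averaged over its tested probes, NCK2 was at 0.53 and 0.64, so its probes differ. GRB10, an adaptor that binds several receptor tyrosine kinases, read 1.20, 1.62 and 1.21 with miR-421, 1.34 ± 0.24 (SD, n = 3, adjusted p = 0.0091), and 0.87 (adjusted p = 0.053) averaged over its probes. With miR-338-5p it spread from -0.04 to 0.93.

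CDC42, a small GTPase that shapes cell protrusions, fell with miR-421 by 0.77 ± 0.30 (SD, n = 3, limma adjusted p = 0.025), and by 0.27 averaged over its probes. ACP1, a phosphatase reported to act on Eph receptors, fell by 0.68 ± 0.43 (SD, n = 3, adjusted p = 0.045), a call that held in 4 of 17 alternatives. The miR-421 count of 12 genes was 4 without the pool, 3 without replicate 1 and 0 without replicate 2. The miR-338-5p count of 1 ranged from 0 to 3 as single arrays were left out.

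**Figure D5:**
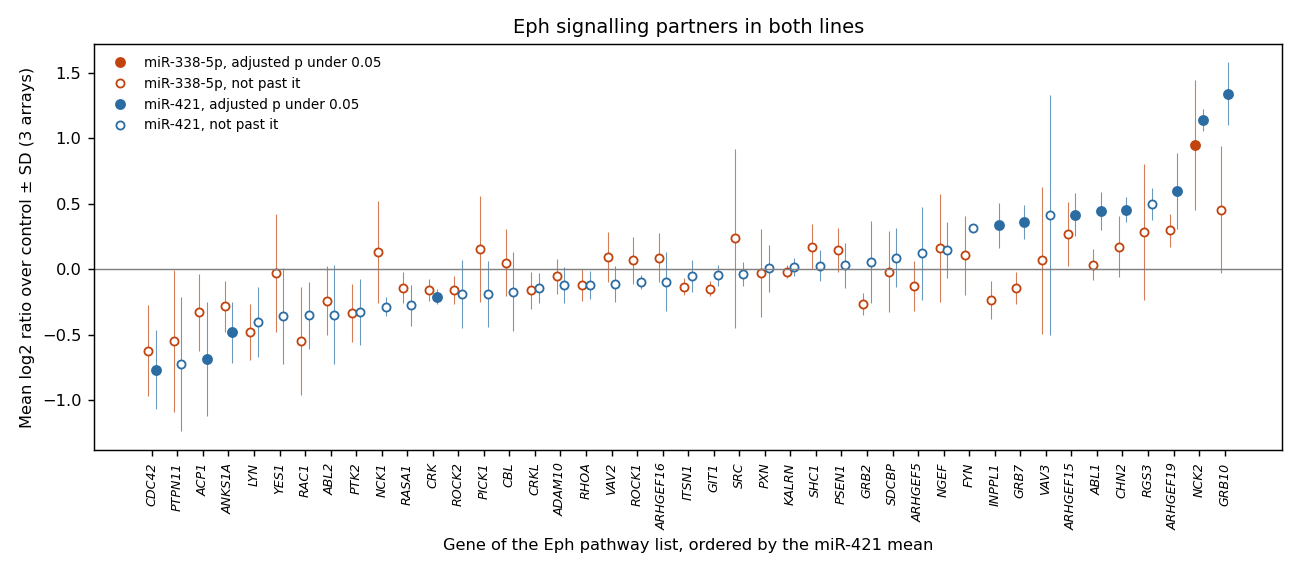
Mean log2 ratio over control of each of the 43 tested genes of the Eph pathway list, ordered by the miR-421 mean, with bars of 1 SD over 3 arrays. Filled points passed the test (limma adjusted p under 0.05) and open ones did not. NCK2 is filled in both lines, and GRB10 and CDC42 are at the ends of the miR-421 order.

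The genes whose ratios ran most like EPHA3 were found among 3213 genes whose ratio spanned at least 1 on the log2 scale, by Pearson r over the 6 arrays. Among the closest were HOXA13 (0.989), UBE2E3 (0.983), APOBEC3F (0.979) and ASAH1 (0.979). UBE2E3 read 0.56, 1.45 and 0.82 with miR-338-5p and -1.14, -1.05 and -0.90 with miR-421, the same order within the miR-338-5p line as EPHA3. HOXA13 was below control in the miR-421 line and mostly in the other, -0.45, 0.15 and -0.07 with miR-338-5p. Most unlike were FKBP1B (-0.994), STARD10 (-0.991) and ENHO (-0.989), and FKBP1B read 0.14, -1.19 and -0.29 against 1.23, 1.22 and 1.16. These values are a description: the EPHA3 ratios fall into 2 groups, 1 for each line, replicate 2 weighs on the order, and the genes were picked for the likeness.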

How the data were processed

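The members and gene lists were chosen with earlier results of these data known. The deposited intensity values are mean spot and median local background brightness, read from the scans by Feature Extraction 11.5.1.1, per the file headers. The deposited log10 ratio, per the file headers, was background-subtracted and dye-normalized by that software. The authors' whole-series table holds log2 ratios whose normalization is not given in the sources used here. Per the labels' protocols, total RNA was poly(A)-tailed and primed with oligo-dT, so RNA without a natural tail could also be labelled.

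Spot intensities were corrected by normexp (offset 50) and normalized by loess with control spots at no weight. Outlier-flagged spots were left out and spots of a probe averaged, giving 58201 gene probes. Tests covered the 27509 that at least 3 of 6 arrays showed well above background in Cy3 or Cy5. All arrays entered 1 limma 3.58.1 fit (R 4.3.3) with eBayes (prior degrees of freedom 2.05), and p-values were two-sided and Benjamini-Hochberg adjusted over all probes. The brightest tested probe stood for a gene. Dye signals were scaled by Aquantile after loess. The fit was tested on simulated data. All arrays shared 1 slide and 1 scan date. Named genes were all members, detected family genes, the largest called rises and falls of the pathway list, and the genes most like EPHA3 with a plain symbol, of which 1 is not reported here. Probe positions are hg19, per the file headers, and 16 of 16 member probes matched the RefSeq table by accession with the same symbol. Exon and UTR annotation was not used here.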

Additional observations from a re-analysis of the deposited data

Results flagged for a closer look

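Opposite signs on every array of the lines marked 4 of the named genes. EPHA3 had a difference between lines of 2.71, which was not tested because the gene was chosen for it. EPHB3 had -0.61 (limma adjusted p of the difference 0.14), with miR-338-5p replicate 3 at the control level. The adaptor GRB7 had -0.51 (adjusted p = 0.16), and INPPL1, a lipid phosphatase that binds EPHA2, had -0.57 (adjusted p = 0.16). None of the 3 tested differences passed the threshold. Over all probes with 6 values, 1.58% were above control with miR-338-5p and below it with miR-421 on every array, and 1.96% the reverse.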

How the results depend on the processing

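The number of the 9 genes past the threshold with miR-338-5p, 1, became 0 with the authors' table, the image software's ratio, no filter on dim probes, a trended and robust variance, or that line's 3 arrays alone, and ranged from 0 to 2 when 1 array was left out. With median centring it stayed at 1, but the gene was EFNB1 and not EFNA1. With miR-421 the count of 1 fell to 0 under median centring and was 3 in a fit of that line's arrays (EFNA1, EFNB2, EPHB3), and ranged from 0 to 4 when 1 array was left out. The difference between lines gave 0 in all 16 alternatives run for it.

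For the pathway list the miR-338-5p count, 1, became 0 with median centring, the authors' table, no filter, a trended and robust variance, or the 3 arrays alone, 2 with probes averaged, and 0 to 3 with 1 array left out. The miR-421 count, 12, became 6 with the background subtracted or the image software's ratio, 3 with median centring, 4 in the authors' table, 7 with no filter or the 3 arrays alone, and 0 to 10 with 1 array left out. The list's difference between lines stayed at 0.

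The EPHA3 mean with miR-421, -0.83, was -1.18 with no background correction, -1.45 with the background subtracted, -1.50 with the image software's ratio and -1.50 in the authors' table. Its difference between lines was 3.71, 3.79 and 3.79 in the last 3 of these. With 1 array left out the EPHA3 means ranged from 1.38 to 2.35 with miR-338-5p and from -0.88 to -0.78 with miR-421, and the difference from 2.22 to 3.18. The causes were not tested. Median centring also moved the split of all calls with miR-338-5p, from 1427 lower of 2463 to 1053 lower of 1284. The lines share only the numbers 1 and 2, and same-numbered arrays did not deviate together (r = -0.14 and -0.21). With the replicate block the EPHA3 mean stayed at 1.88 and the 9 genes gave 1 and 1 calls, while EPHA1 with miR-421 (adjusted p = 0.058) was lost. Dim probes (EPHA2, EPHA4, EPHA7, EPHB2, EPHA1 and the coding probe of EPHB4) limit what can be read. The background correction added an offset of 50, and its effect on their ratios was not tested.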
